A study of Mus musculus with 16 samples.

Results

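Chromatin regions private to lung were described in 16 ATAC-seq peak lists from 8 mouse tissues. Members were chosen from the readout itself: a region of the fed lung library with q under 0.01 (a −log10 q of at least 2) had to overlap, by 1 bp or more, a region of the fasted lung library past the same threshold, and had to meet none of the peaks listed for the 7 other tissues in either state. This selection left 10397 regions of the 160424 in the fed lung list. They were 8.78% of the 118416 fed lung regions that were open in both lung libraries, and the other 108019 of those met a peak of at least 1 other tissue and are called shared regions below. Since the selection used the presence of peaks and their q values in both lung libraries, strength and rank of the members are given as a description, with no test.

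ATAC-seq reads out open chromatin by the insertion of sequencing adapters by the Tn5 transposase. Male C57BL/6 mice, acquired at 12 weeks of age, either had free access to chow and water (fed) or were fasted for 24 h, with 3 mice per state. Frozen tissue of the 3 mice of a state was pooled before nuclei were isolated, so that lung, liver, kidney, spleen, heart, muscle and both adipose depots (brown and white) each gave 1 fed and 1 fasted library, with no replicate of either. Within a state the same 3 animals supplied every tissue. The lung libraries were made from the whole organ, in which fewer cells of a type and less accessibility per cell cannot be told apart.

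The lung combines an airway and alveolar epithelium, which arises from foregut endoderm under the transcription factor NKX2-1, with dense capillaries, fibroblasts and resident macrophages. Alveolar type 2 cells make the surfactant that keeps the alveoli open, and thin alveolar type 1 cells form the surface for gas exchange. Regions open in 1 tissue alone are commonly distal enhancers, short stretches of DNA bound by transcription factors that act on starts of genes at a distance.

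The library labels were checked against 10 lung marker genes. All 10 had a lung region within 3000 bp of a start in both states, for which no share over all genes was counted. Of the 10, 8 were the nearest protein-coding gene of at least 1 private region (the exceptions were Ager and Foxj1). Over all protein-coding genes this share was 22.8%. By the strongest region within 3000 bp of a start, lung ranked above each of the other tissues at 4 of 10 markers (Sftpa1, Sftpd, Nkx2-1 and Ager). At the Sftpd start, lung regions reached rank 82.7 in fed and 86.0 in fasted mice, while each library of the other tissues was listed with no region there. Within 3000 bp of a start of Sftpc and of Foxj1, by contrast, every library of the other tissues had a region too. By the strongest region in that span, the mean rank of both states at Sftpc was 84.7 in lung and 96.4 in heart. The lung region 21 bp upstream of a Sftpc start was private, with the nearest peak of another tissue 2561 bp away. Read depth is not given in the files, but the deposited fold and p together fix the tags at a summit. The genome background obtained this way was 8.92 tags in the fed and 7.14 tags in the fasted lung library, against 2.80 to 12.8 in the other libraries. In both lung lists each region passed q under 0.01, with a lowest −log10 q of 3.26 in fed and 2.88 in fasted lung, so that this threshold removed no lung region.

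The sequences at the summits of 9 members follow, read from the plus strand of GRCm38, because they include the strongest member, the strongest members that carry the NKX2-1 or FOX letters described below, and examples at 5 genes of the lung lists (Sftpa1, Nkx2-1, Foxa2, Rtkn2 and Tmem100), each the strongest member of that gene whose window is outside exons. Stronger members exist at other genes of these lists, such as Kit, Tbx3 and Sftpd. Windows chosen in the same way at Sftpc, Sftpb, Foxf1, Mbip and Etv5 held none of the letters marked below and are not shown. The strongest member is the one with the highest value of its lower rank in the 2 lung libraries. Each window spans 100 bp on both sides of the summit and is named by the gene with the nearest protein-coding start, which does not make that gene its target. Capitals mark exact matches, on either strand, to TCAAGTG (NKX2-1), TGTTTAC (FOX), ACATTCC (TEAD), CATTGTT (SOX) or CAGGAAG (ETS), and a window without capitals has none of them.
Gli3, chr13:15602850-15603050: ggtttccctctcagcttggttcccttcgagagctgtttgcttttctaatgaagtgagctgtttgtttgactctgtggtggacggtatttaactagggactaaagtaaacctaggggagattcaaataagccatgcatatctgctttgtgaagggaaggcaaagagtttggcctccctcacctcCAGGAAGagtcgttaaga
Toporsl, chr4:52659828-52660028: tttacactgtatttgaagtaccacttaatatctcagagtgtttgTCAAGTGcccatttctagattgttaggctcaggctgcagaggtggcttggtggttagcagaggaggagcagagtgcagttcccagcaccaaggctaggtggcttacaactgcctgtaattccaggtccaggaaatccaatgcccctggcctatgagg
Sall1, chr8:89685825-89686025: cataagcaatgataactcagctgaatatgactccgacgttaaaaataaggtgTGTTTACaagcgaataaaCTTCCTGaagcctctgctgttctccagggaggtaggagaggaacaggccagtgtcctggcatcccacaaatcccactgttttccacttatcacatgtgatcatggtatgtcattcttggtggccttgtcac
Smarca2, chr19:26745676-26745876: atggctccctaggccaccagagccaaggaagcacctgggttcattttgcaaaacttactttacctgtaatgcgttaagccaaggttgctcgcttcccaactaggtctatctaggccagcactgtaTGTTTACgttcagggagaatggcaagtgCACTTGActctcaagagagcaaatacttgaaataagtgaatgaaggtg
Sftpa1, chr14:41137126-41137326: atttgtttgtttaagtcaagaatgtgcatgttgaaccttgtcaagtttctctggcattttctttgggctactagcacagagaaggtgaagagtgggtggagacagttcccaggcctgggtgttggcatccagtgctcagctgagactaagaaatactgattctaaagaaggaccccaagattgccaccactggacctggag
Nkx2-1, chr12:56487072-56487272: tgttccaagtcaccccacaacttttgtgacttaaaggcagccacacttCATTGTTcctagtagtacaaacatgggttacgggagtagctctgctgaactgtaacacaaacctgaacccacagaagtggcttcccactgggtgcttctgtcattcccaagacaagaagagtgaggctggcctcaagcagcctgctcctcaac
Foxa2, chr2:148206699-148206899: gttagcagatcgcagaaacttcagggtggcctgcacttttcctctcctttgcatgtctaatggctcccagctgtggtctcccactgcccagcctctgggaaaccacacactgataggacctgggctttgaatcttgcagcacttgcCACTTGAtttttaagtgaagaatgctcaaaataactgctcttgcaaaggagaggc
Rtkn2, chr10:67965424-67965624: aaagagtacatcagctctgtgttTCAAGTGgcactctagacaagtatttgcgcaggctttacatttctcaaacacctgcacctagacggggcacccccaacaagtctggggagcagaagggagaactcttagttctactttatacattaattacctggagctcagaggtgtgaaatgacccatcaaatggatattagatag
Tmem100, chr11:90044622-90044822: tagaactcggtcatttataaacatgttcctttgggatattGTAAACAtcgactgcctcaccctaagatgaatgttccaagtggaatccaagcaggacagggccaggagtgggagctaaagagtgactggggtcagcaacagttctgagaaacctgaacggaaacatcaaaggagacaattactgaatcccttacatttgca

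The Gli3 window is from the strongest of all members, in an intron of Gli3. The Toporsl and Sall1 windows are the strongest with the NKX2-1 and with the FOX letters, and the Smarca2 window, in an intron of a chromatin remodeller gene, is the strongest with both. The Sftpa1 window, downstream of a surfactant protein gene, held none of the 5 motifs, and a missing match says only that these letters are not in the window. The window named by Foxa2, which encodes a pioneer factor of foregut endoderm, was intergenic and 159830 bp from its start. That of Rtkn2, a marker gene of alveolar type 1 cells, was in an intron, 14046 bp from a start. Both windows held the NKX2-1 letters. The window at Tmem100, an endothelial gene induced by BMP signalling, held the FOX letters.

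Members lay mainly away from gene starts. The median distance from a summit to the nearest annotated start was 11013 bp for members and 5844 bp for shared regions, and to the nearest protein-coding start it was 20118 and 9814 bp. Of the 10397 members, 2049 were within 3000 bp of a start, 19.7% (95% Clopper-Pearson interval 18.9 to 20.5), against 38.5% of shared regions (38.2 to 38.8). Within 1000 bp of a start the shares were 8.78% and 26.6%. At the other end, 27.8% of members and 15.5% of shared regions were over 50000 bp from any protein-coding start, and the farthest member was 1431967 bp away. Intervals here and below cover counting error only, since neighbouring regions are not independent.

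**Figure D1:**
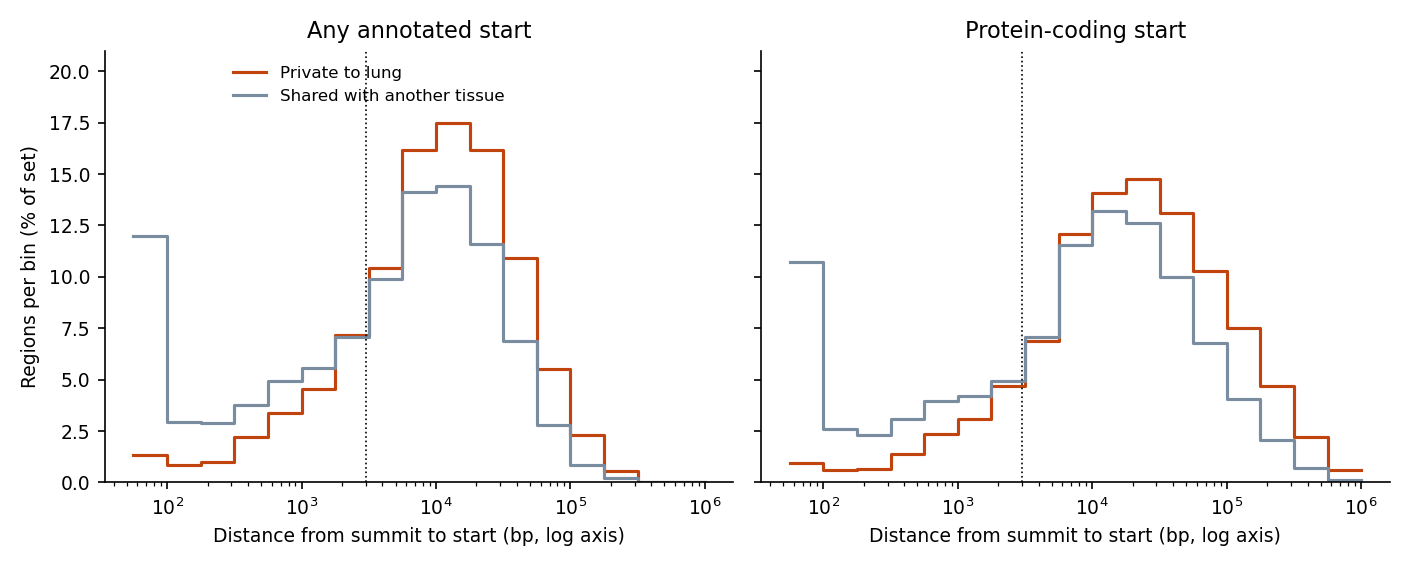
Share of regions (y axis, % of the set per bin) by the distance from summit to the nearest annotated start of any gene (left) or of a protein-coding gene (right), on a log axis in bp, for the 10397 private (orange) and 108019 shared (grey) lung regions; the first bin holds all distances under 100 bp, and the dotted line marks 3000 bp. The peak at the start itself is prominent in shared regions and nearly missing in private ones, whose median distance was 11013 bp on the left and 20118 bp on the right.

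A lower promoter share of private regions was found in each of the 8 tissues, when the same rule was applied with that tissue in the place of lung. Private minus shared, the promoter share differed by −18.8 percentage points in lung and by −20.2 ± 2.66 points on average (SD, n = 8 tissues), from −25.4 in heart to −17.6 in brown adipose. An exact two-sided sign-flip permutation test over the 8 tissues gave p = 0.00781, adjusted p = 0.00781 (Benjamini-Hochberg over 2 tests), the smallest value that 8 tissues allow. The 8 differences are not independent, since the same animals supplied every tissue and a region open everywhere can be in every shared set. Of the both-state lung regions, 35852 (30.3%) met a peak in each of the 7 other tissues. The rule keeps such regions out of every private set, and how far this fixed the sign was not tested. The lung difference was within the range of the other tissues. Its private promoter share of 19.7% was the lowest value of the 8, but the interval overlapped that of white adipose, the next (18.6 to 21.4).

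Members were also poorer in G and C. Mean GC content within 100 bp of the summit was 47.3% in members and 53.1% in shared lung regions, a difference of −5.81 points. Over the 8 tissues the difference was −6.12 ± 1.19 points (SD, n = 8), from −7.51 in liver to −3.51 in spleen, with private regions lower in 8 of 8 tissues (p = 0.00781 and adjusted p = 0.00781 by the same exact permutation test). The limits given for the promoter test hold here too. Among regions over 3000 bp from a start, the lung values were 47.0% and 50.5%. There the mean difference over the 8 tissues was −3.42 points, from −4.57 to −0.94, and spleen had 50.7% and 51.6%. The GC and promoter differences thus overlap in part and are not separate findings. Members without any CpG in this window made up 13.2%, compared with 7.70% of shared regions, and bases marked as repeats were 13.02% and 10.4% of the windows.

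By position of the summit, 57.1% of members were in introns, 35.9% were intergenic, 2.94% were in exons of non-coding transcripts, 2.48% in UTRs and 1.66% in coding exons. Shared regions were in introns at 52.5% and in UTRs at 7.64%. Members were narrower, with a median width of 219 bp in the fed list against 331 bp, and 68.6% had a single summit against 49.1% of shared regions. Their share of the both-state lung regions ranged by chromosome from 7.28% on chromosome 17 (398 of 5465) to 10.6% on chromosome 16 (450 of 4263), leaving aside the Y chromosome with 0 of 39.

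Private did not mean isolated. The nearest peak of another tissue was a median of 491 bp from the edge of a member, with 25% of members within 174 bp and the farthest at 165381 bp. In all, 50.6% of members were within 500 bp of such a peak, while 4.78% had none within 5000 bp. The fasted lung region that paired with a member itself touched a peak of another tissue in 1044 cases (10.04%). The partner was shared with another member in 680 cases and with a shared fed region in 703, so that 9068 members had a fasted region that was the partner of no other fed region. At the other edge of the selection, 6486 regions met a peak of 1 library of another tissue only, and 1369 of those peaks (21.1%) had a q above 0.01. The lower of the 2 lung ranks had a median of 32.1 both in members and in these 6486 regions, and it was 90.5 in the 25099 regions that met a peak in all 14 other libraries. Among the 11837 lung regions shared with 1 other tissue alone, spleen accounted for 3845 (32.5%), more than any of the other 6, and brown adipose for the fewest, 691.

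Ranks are percentiles by p within a deposited list, with 100 for the strongest region. Members were of middling strength: their median rank was 38.2 in fed lung (from 0.196 to 93.9) and 50.1 in fasted lung (from 0.0337 to 99.7), where shared regions had medians of 64.6 and 65.9. Only 12 members (0.115%) were above rank 90 in both lists, in contrast to 12.8% of shared regions. The median fold enrichment of summit tags over the local expectation was 3.02 in fed and 3.52 in fasted lung for members, and 4.03 and 4.26 for shared regions. In tags, the median member had 38 at its summit in each library, over a local expectation of 9.88 in fed and 8.55 in fasted lung.

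**Figure D2:**
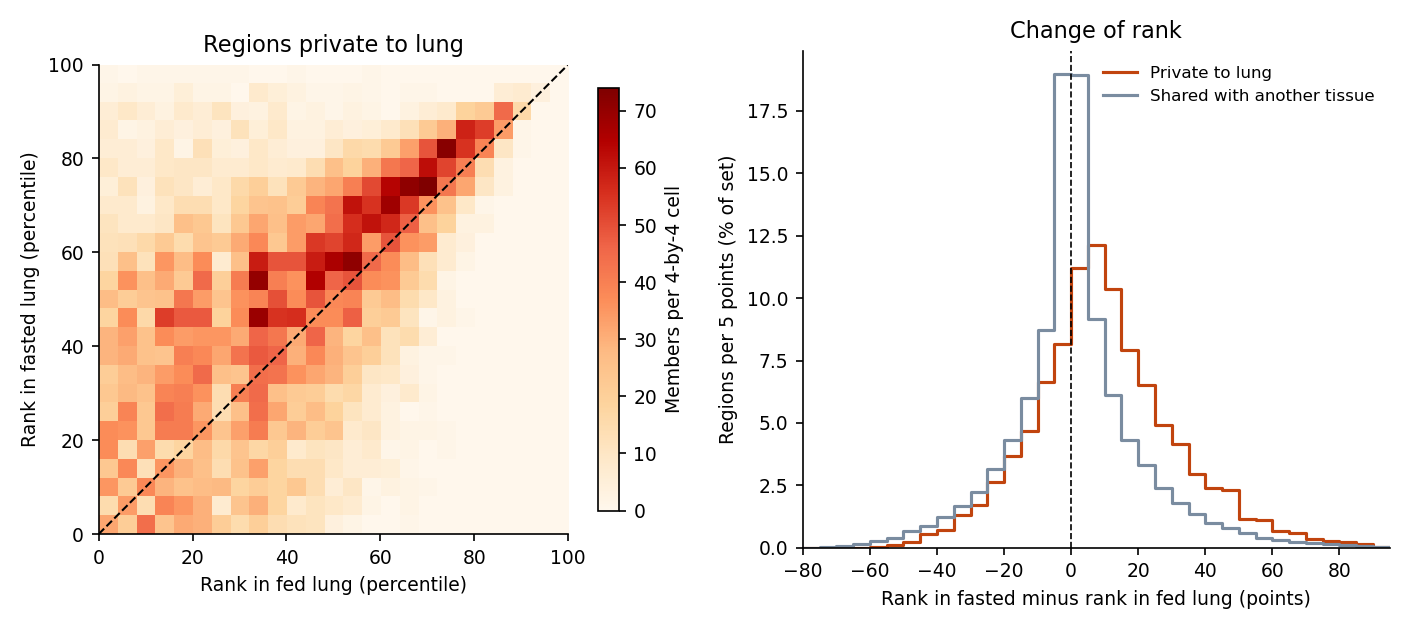
Left, number of members per cell of 4 by 4 rank points (colour) by rank in fed (x) and fasted (y) lung, with the line of equal rank dashed; right, rank in fasted minus rank in fed lung, in bins of 5 points, as % of the private (orange) and shared (grey) regions. Most cells with many members lie above the line, where 69.5% of members fell, while the shared regions centre on 0.

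Members ranked higher in fasted than in fed lung more often than not. The median difference, fasting minus fed, was 8.07 points for members and 0.11 points for shared regions. A higher rank in fasting was found for 7222 members (69.5%, interval 68.6 to 70.3), for 51.2% of shared regions and for 52.8% of all both-state lung regions. Changes of at least 20 points were upward in fasting for 27.8% of members and downward for 7.40%, whereas in shared regions the figures were 12.7% and 10.7%. Members and shared regions were also set side by side at like ranks. Within bins of the mean of both ranks, the median difference for members was 11.4 points at ranks 20 to 40, 11.7 at 40 to 60, 8.05 at 60 to 80 and 4.30 above 80, and that of shared regions was 1.03, 1.73, 0.59 and −0.04. Below a mean rank of 20 the medians were 0.94 and 0.64. Binned by fed rank instead, both sets had a median of 23.5 points below rank 20, while at ranks 40 to 60 it was 4.51 for members and 0.66 for shared regions. Members thus stood above shared regions in the middle and upper bins and level with them in the lowest.

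With 1 library per state, this shift has no replicate check and cannot be told apart from a difference between the 2 pools or libraries. The fasted library had the lower background, 7.14 against 8.92 tags, and the part of this in the shift was not tested. Where several fed regions fall into 1 fasted region, each of them takes its rank, and over the 9068 members without this the median difference was 6.76 points and 66.3% ranked higher in fasted lung, against −0.21 points and 48.1% for shared regions chosen the same way. Chosen so, members at mean ranks of 20 to 40 had a median of 9.62 points and those above 80 of 4.12 points, and shared regions had −1.12 and −0.10. When fasted regions were taken as the starting point, 10184 were private and the median difference was 5.08 points. Private regions of the other tissues shifted by between −2.21 points in muscle and 17.1 points in white adipose, with 7.38 in brown adipose and 1.79 in liver, so the lung value was the second highest of 8. Over regions whose fasted region had no other partner, it was below brown adipose, at 6.76 against 6.79 points.

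The strongest member was 734 bp long, at chr13:15602545-15603278 in GRCm38, with starts counted from 1, in an intron of Gli3 at 138970 bp from its start. Gli3 encodes a transcription factor that mostly represses targets of hedgehog signalling. The region ranked 93.9 in fed and 95.1 in fasted lung, with 181 tags at the summit against 11.99 expected in fed lung and 192 against 11.1 in fasted lung. A peak of another tissue lay 155 bp away. Next came a region in an intron of Sgip1, 48620 bp from its start, which encodes an endocytic adaptor, with ranks of 92.7 and 94.2. An intergenic region followed, 52722 bp from Toporsl, with ranks of 92.6 and 93.4, the highest fold enrichment of all members in fed lung (14.4) and 16.6 in fasted lung.

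The remaining 7 of the 10 members with the highest lower rank had ranks from 90.3 to 92.1 in fed and from 90.5 to 93.3 in fasted lung. The region nearest to Tns3, which encodes a focal adhesion protein, and that nearest to Pcnx4 ranked 92.1 and 91.5 in fed lung. Regions assigned to Sall1 and Gata3, both developmental transcription factors, were intergenic and lay 641763 and 342663 bp from those starts, so that the nearest gene is a label of place here. The Sall1 region was also the one farthest from peaks of other tissues among the 10, at 8127 bp. The last 3, in introns at Syt15, Rasgef1a and Snx25, were 3501, 18344 and 6267 bp from a start. They stood over a higher local expectation, for example 30.8 tags in fed lung at Rasgef1a, and had lower folds, 6.29 in fed and 5.97 in fasted lung at that gene.

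When each member was assigned to the nearest protein-coding start, 4997 of 21951 protein-coding genes (22.8%) had at least 1 member, 2720 of them just 1. Genes with 5 or more members numbered 404 (1.84% of all) and held 27.7% of the members. The 10 genes with the most members were led by Nckap5, a large gene of little known function, with 34 of its 74 both-state lung regions private (45.9%). Its strongest member was in an intron, 62914 bp from a start, with ranks of 78.7 and 80.5. Mbip, the neighbour of Nkx2-1, came next with 25 of 44 (56.8%), followed by Mecom, which encodes a transcription factor of haematopoietic and endothelial cells, with 23 of 88 (26.1%).

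Cadm1, an adhesion molecule of epithelia, Cdk14, a cyclin-dependent kinase, Klf12, a transcriptional repressor, and Thsd4, a protein of extracellular microfibrils, each had 18 members. Fgfr2, the receptor through which FGF10 drives lung branching, had 16 of 59 lung regions private (27.1%). Of these, 12 ranked higher in fasted lung, with a median difference of 21.5 points. Over the 12 whose fasted region had no other partner, 8 were higher, with a median of 11.3 points. That was 66.7%, against 66.3% of all such members. Alcam, an adhesion molecule, and Pam, an enzyme of peptide amidation, had 14 each, of 50 and 29 lung regions (28.0% and 48.3%). At Pam the order of states was the other way, with 4 of 14 members higher in fasted lung and a median difference of −5.96 points. Large genes and genes with wide flanks collect more regions by this assignment, so the private share of a gene's lung regions is given beside each count.

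Gene lists of lung cell types were compared with the 22.8% of all protein-coding genes and with the private share of 8.78% over all both-state lung regions. These lists, of textbook markers, hold few genes, and the values are descriptions without a test.

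The alveolar type 2 list had the highest values of the 24. All 12 of its genes had a member, 43 members in all, and 29.5% of the 146 lung regions nearest to these genes were private. The same genes had between 0 (heart) and 6 of 12 (kidney) genes with a private region in the other tissues. Heart and kidney also had the lowest and highest shares over all genes, 8.13% and 35.9%. Sftpd, a collectin of the surfactant, had 6 of 13 lung regions private and Sftpa1, its relative, 5 of 7. Sftpb, the hydrophobic surfactant protein needed for breathing at birth, had 5 of 16. Etv5, an ETS factor that maintains type 2 identity, had 12 of 32, and all 12 ranked higher in fasted lung, as did the 8 of them whose fasted region had no other partner. Over the 43 members of the list the median rank was 45.2 in fed and 59.5 in fasted lung, with 35 of 43 higher in fasted lung, where shared regions at the same genes differed by a median of 5.99 points. The median difference was 14.2 points over the 43, but 6.24 points over the 31 whose fasted region had no other partner. Of these 31, 23 were higher in fasted lung (74.2%). Over all such members the median was 6.76 points and 66.3% were higher.

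The strongest Sftpd member lay 33 bp upstream of a start, with ranks of 82.7 and 86.0 and with 103 and 118 summit tags in fed and fasted lung. Of the 6 Sftpd members, 5 ranked higher in fasted lung, but only 2 had a fasted region with no other partner, and 1 of these 2 was higher. At Sftpa1 the strongest member, 5438 bp downstream of the start, had ranks of 81.6 and 87.7, with 132 and 171 tags. A second Sftpa1 member beside it, with rank 21.3 in fed lung, was paired with the same fasted region, which gave it a difference of 66.4 points. Sftpc, the surfactant protein made by type 2 cells alone, had 2 of 3 lung regions private. One lay 21 bp upstream of its start with ranks of 69.9 and 73.5, and the other 2708 bp upstream with ranks of 16.6 and 37.5, the latter of a fasted region that was also the partner of another fed region. At Sftpb the 5 members ranked from 14.1 to 60.7 in fed and from 22.7 to 67.0 in fasted lung, the strongest of them 10381 bp downstream. Their folds were low (2.39 in fed lung for the strongest) beside a local expectation of 48.3 tags at that summit.

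Lamp3, a lamellar body gene, had 3 of 5 lung regions private, including 1 at 54 bp from its start, with ranks of 38.7 and 64.2, and 1 in an intron with ranks of 73.2 and 87.9, 21164 bp from the nearest peak of another tissue. Among the other genes of the list, Slc34a2, the phosphate transporter of type 2 cells, had 3 members, Lpcat1, an enzyme of surfactant lipid synthesis, and Cxcl15, a lung chemokine, had 2 each. Abca3, the lipid pump of lamellar bodies, Napsa, a protease that matures surfactant proteins, and Muc1, an epithelial mucin, had 1 each.

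The alveolar type 1 list had members at 9 of 12 genes, with 27 of 169 lung regions private (15.98%). Rtkn2 had 7 of 23, with its strongest member in an intron ranked at 74.9 in fed and 67.6 in fasted lung. Emp2, a tetraspan membrane protein, had 4 of 25, Clic5, an intracellular chloride channel protein, 3 of 37, and Aqp5, the alveolar water channel, 3 of 7. Median ranks over the list were lower than for type 2 genes, 28.9 in fed and 36.9 in fasted lung. In fasted lung 16 of 27 members were higher, against 69.5% of all members.

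For airway club cells 7 of 12 genes had a member, which is close to liver with 6 of 12 for the same genes. Cyp2f2, a cytochrome P450 of club cells, had 4 of 12 lung regions private, all 4 higher in fasted lung, with ranks of 77.4 and 86.7 for the strongest. Scgb3a2, a secretoglobin, had 3 of 6. Scgb1a1, the main secreted protein of club cells, had 1 of 17, located 218 bp upstream of its start with ranks of 49.7 and 63.2, and 98 bp from a peak of another tissue. Aldh1a7, an aldehyde dehydrogenase, had 1 of 6. Ciliated cells had 4 of 12 genes with a member (33.3%), below kidney with 7 of 12, namely Tppp3 and Ccdc113 with 2 each, and Ccdc39 and Hydin, both needed for motile cilia, with 1 each. At the ciliated genes 6 of 54 lung regions were private (11.1%), and kidney had 18 private regions. Basal and neuroendocrine cells had 3 of 12 genes with a member, near the 22.8% of all genes, with Trp63, the master factor of basal cells, at 2 of 12 regions, Uchl1 at 2 of 10 and Chga at 1 of 7. The private share at the genes of this list was 5 of 42 lung regions (11.9%), and muscle had 15 private regions there.

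**Figure D3:**
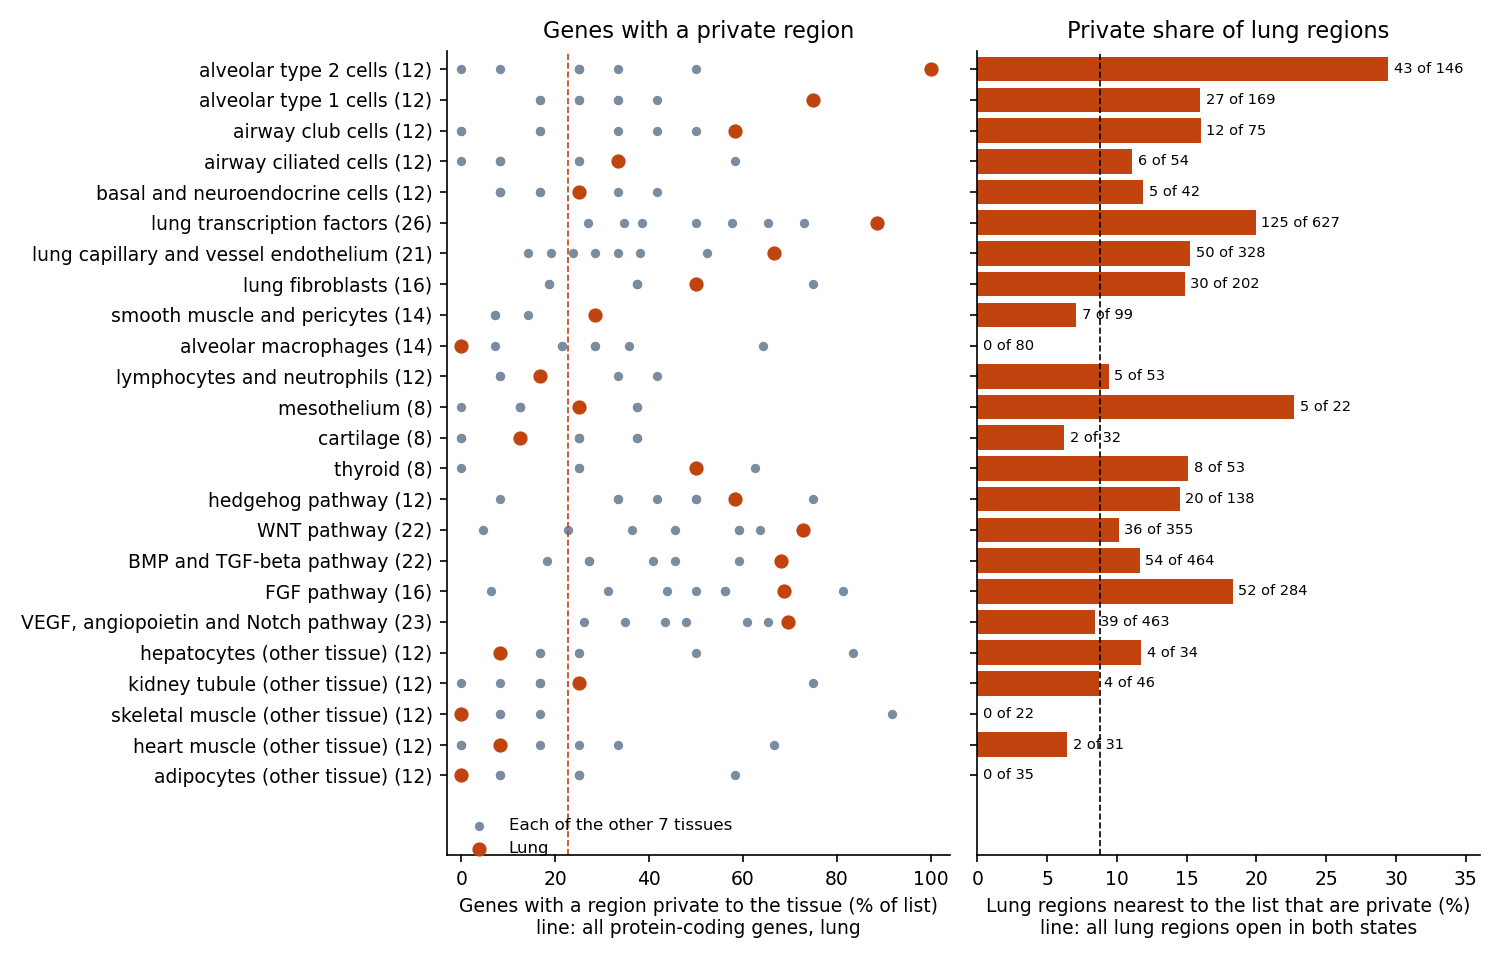
Left, % of the genes of each list (number of genes in brackets) with at least 1 region private to lung (orange) or to each of the other 7 tissues (grey), with the dashed line at the 22.8% of all protein-coding genes that had a member; right, private share of the lung regions nearest to each list, with counts, and the dashed line at 8.78% of all both-state lung regions. Alveolar type 2 genes are highest in both panels (12 of 12 genes, 29.5% of regions), while alveolar macrophage, skeletal muscle and adipocyte genes are at 0 in both.

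Endothelial genes had members at 14 of 21 (66.7%), 50 of 328 lung regions (15.2%), with kidney next at 11 of 21 genes. Kit, a receptor tyrosine kinase of capillary endothelial cells, had 7 of 22 with ranks of 87.6 and 89.2 for the strongest, which was intergenic and 102285 bp from a start. Bmpr2, the receptor mutated in heritable pulmonary hypertension, had 7 of 30, Calcrl, the adrenomedullin receptor, 7 of 27, and Tmem100 6 of 22. The strongest Tmem100 member, 14374 bp downstream of the start, ranked 78.8 in fed and 89.5 in fasted lung. The Tmem100 member at 60 bp from the start had the opposite order, 60.7 and 15.8.

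Fibroblast genes had members at 8 of 16, fewer than in kidney, where 12 of 16 had a private region. Of the 202 lung regions nearest to these genes 30 were private (14.9%), and kidney had 44 private regions there. Limch1, an actin regulator, had 10 of 61, Npnt, a basement membrane protein, 6 of 20, and the collagen genes Col14a1 and Col13a1 3 each. Smooth muscle and pericyte genes had members at 4 of 14 (28.6%), of which Hhip, a hedgehog antagonist linked to lung function, had 4 of 7 lung regions private, while Myh11, Myocd and Cnn1 had 1 each. The private share of lung regions was 7 of 99 (7.07%), below the 8.78% of all lung regions, and muscle, white adipose, spleen and kidney each had a private region at 4 of the same 14 genes. The 7 members ranked higher in fasted lung. Of the mesothelium genes 2 of 8 had members, with Upk1b, a uroplakin, at 4 of 8 regions and Krt19 at 1 of 7, and 5 of 22 lung regions there were private (22.7%). The cartilage genes had members at 1 of 8, Matn3, with 2 of 32 lung regions private (6.25%). Thyroid genes had members at 4 of 8, with Iyd at 4 members, Pax8 at 2, and Tg and Tshr at 1 each, and 8 of 53 lung regions there were private (15.1%). Liver had private regions at 5 of these 8 genes, and spleen, heart and kidney at 4 each.

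None of the 14 alveolar macrophage genes had a member, although 80 both-state lung regions were nearest to them. Taking 3 counts as an approximate one-sided upper limit for 0, the 0 of 80 allows a share of up to 3.75%. This limit is lower than a two-sided Clopper-Pearson interval would give. White adipose met 83.8% of these 80 regions with a peak and spleen 65.0%, against 66.6% and 61.0% of all lung regions. In spleen, 9 of the same 14 genes had a region private to that tissue. Lymphocyte and neutrophil genes had members at 2 of 12, Ptprc with 4, the nearest of them 191438 bp from its start, and Cxcr2 with 1, and spleen met 77.4% of the 53 lung regions there. Of those 53 regions 5 were private (9.43%). Genes typical of other organs were counted for comparison. Members were found at 1 of 12 hepatocyte genes (Apob, 4 members), 3 of 12 kidney tubule genes (Lrp2, Aqp2 and Kap), 1 of 12 heart muscle genes (Ryr2, 2 members) and 0 of 12 genes of skeletal muscle and of adipocytes. By region, the private share was 4 of 34 at hepatocyte genes (11.8%), 4 of 46 at kidney tubule genes (8.70%) and 2 of 31 at heart muscle genes (6.45%), against 8.78% of all lung regions. By the same approximate limit of 3 counts, the 0 of 22 at skeletal muscle genes allows a share of up to 13.6% and the 0 of 35 at adipocyte genes up to 8.57%. Each of those lists was highest in its own organ, with 10 of 12 in liver, 9 of 12 in kidney, 8 of 12 in heart, 11 of 12 in muscle and 7 of 12 in brown adipose.

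Transcription factors of lung development had members at 23 of 26 genes (88.5%), 125 members and 19.9% of 627 lung regions. These genes also collect private regions elsewhere, at 19 of 26 in kidney and 17 of 26 in liver, though with fewer regions (94 and 83). Nkx2-1 had 9 of 18 lung regions private. Tbx3, a T-box factor of lung mesenchyme, had 13 of 33, with its strongest member 205866 bp away at ranks of 84.7 and 88.0. Irx1, a homeobox factor, had 12 of 27, 11 of them higher in fasted lung, and Sox2, which specifies the proximal airway, had 10 of 25. Foxa2 had 9 of 53 and Foxf1, the factor of lung mesenchyme and capillaries, 7 of 21. The strongest Foxf1 member lay 8214 bp upstream of the start with ranks of 63.0 and 59.9, and the one 6941 bp downstream ranked 64.2 in fed and 9.09 in fasted lung. Tbx4, a factor of lung mesenchyme, had 2 of 14, with ranks of 15.6 and 53.9 at 1393 bp and of 25.6 and 24.5 at 20563 bp from the start.

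Signalling pathways were ordered by their parts. In the hedgehog pathway 7 of 12 genes had members (20 of 138 regions, 14.5%), fewer than in kidney with 9 of 12 genes and 34 private regions. The ligand Shh had 4 of 19, the receptor Ptch1 2 of 22, the co-receptor Boc 2 of 6, the antagonist Hhip 4 of 7, and the transcription factor Gli3 4 of 13, which ranked from 15.3 to 93.9 in fed lung. In the FGF pathway 11 of 16 genes had members (52 of 284, 18.3%), with the receptor Fgfr2 first, then the target Etv5, the inhibitor Spry2 with 7 of 34 and the receptor Fgfr3 with 4 of 15. The list had its median at rank 25.2 in fed and 50.1 in fasted lung, with 40 of 52 members higher in fasted lung, and a median difference of 15.5 points. Over all members 69.5% were higher, with a median of 8.07 points. Of the 40 whose fasted region had no other partner 28 were higher (70.0%), with a median of 10.1 points. That share was near the 66.3% of all such members, whose median was 6.76 points. Kidney had private regions at 13 of these 16 genes.

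BMP and TGF-beta genes had members at 15 of 22 (54 of 464 regions, 11.6%). Kidney had private regions at 15 of the 22 as well, with 56 regions, and muscle had 51 regions. The lung members included the ligand Bmp5 with 7 of 19, the receptors Bmpr1b with 7 of 18 and Bmpr2, and the target Id2 with 6 of 56. One Bmp5 member lay 14 bp from a start with ranks of 70.1 and 70.8. WNT genes had members at 16 of 22, but 36 of 355 regions (10.1%), close to the 8.78% of all lung regions, where muscle had private regions at 14 of the genes and kidney had 47 regions. Rspo2, an enhancer of WNT signalling, had 5 of 9, Tcf7l2, a nuclear effector, 4 of 37, and the ligands Wnt4 and Wnt3a 4 of 15 and 3 of 9. VEGF, angiopoietin and Notch genes had members at 16 of 23, with 39 of 463 regions private (8.42%), no higher than the background, and spleen had 16 of 23 with 41 regions. Among them the receptors Nrp1 and Flt1 had 6 of 43 and 6 of 33 lung regions private. The Notch ligand Jag1 and the Notch target Hes1 had 4 of 22 and 4 of 45.

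Clusters were defined as 3 or more members joined by gaps of at most 25000/2 bp, the distance commonly used to stitch enhancers. There were 453 clusters, which held 1563 members, 15.03% (interval 14.4 to 15.7), and 37 of the clusters had 5 or more. By the same definition 3.72% of the private regions of white adipose and 32.1% of those of muscle were in clusters, which had 3227 and 14685 private regions. The share was 20.9% in liver, with 11861 private regions, 16.7% in spleen and 27.5% in kidney, all above lung. Brown adipose (10.4%) and heart (8.69%) were below it. The median gap to the next member on a chromosome was 65679 bp. In 210 of the clusters all both-state lung regions of the span were members.

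The cluster with the most members had 16, at chr12:56248292-56302283, a stretch of 53992 bp with no protein-coding gene inside. All 16 had Mbip as nearest protein-coding start, at 43608 to 97476 bp, and they were 72.7% of the 22 lung regions in the span. Nkx2-1 lies on the other side of Mbip. Ranks ran from 1.39 to 84.1 in fed and from 3.06 to 85.9 in fasted lung, with medians of 35.1 and 33.5, and 9 of 16 were higher in fasted lung. Its strongest member, 70042 bp from Mbip, had 99 summit tags in fed lung. None of the 16 held the NKX2-1 letters in the window and 2 held the FOX letters.

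Nkx2-1 itself carried a cluster of 6 members around its start, among 11 lung regions in 16283 bp. The member at 40 bp from the nearest annotated start ranked 4.204 in fed and 89.7 in fasted lung, with 68 and 191 summit tags. Its fasted region also covered a strong shared fed region (rank 85.1), so this difference is not that of a single region. Its neighbours 188 and 718 bp upstream had ranks of 65.7 and 65.3, and of 42.9 and 15.7. Peaks of other tissues lay 494 to 813 bp from these 3. The members at 40 and 718 bp held the NKX2-1 letters. Farther out, a pair of members 47934 and 48398 bp from the start had ranks of 74.3 and 74.5, and of 54.9 and 70.6.

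**Figure D4:**
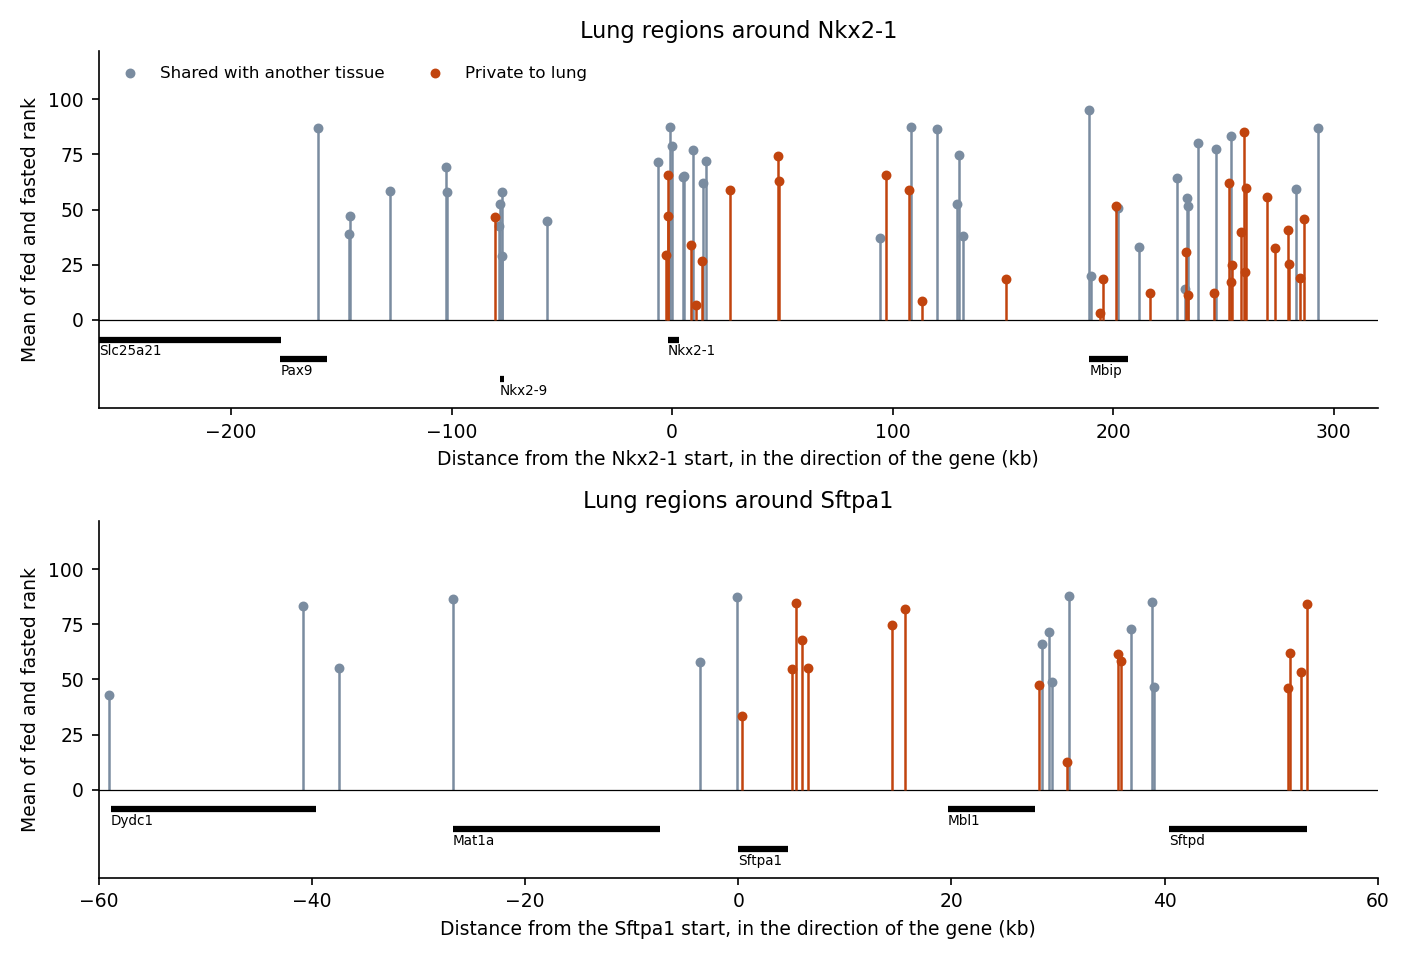
Lung regions around Nkx2-1 (top) and Sftpa1 (bottom) by distance in kb from the gene's start, in the direction of the gene, against the mean of their ranks in fed and fasted lung; orange stems are private, grey stems shared with another tissue, and black bars are protein-coding genes. Around Nkx2-1 34 private and 38 shared regions are drawn, with most private ones at Nkx2-1 and beyond Mbip, and around Sftpa1 15 private and 13 shared regions, the private ones between Sftpa1 and Sftpd.

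The next cluster, with 11 members at chr14:41132025-41167904, lay in the collectin locus, with 5 members nearest to Sftpa1, 4 to Mbl1 and 2 to Sftpd. Mbl1 encodes a mannose-binding lectin. Members were 11 of 15 lung regions (73.3%), with median ranks of 46.0 in fed and 73.8 in fasted lung, and 10 of 11 ranked higher in fasted lung. Of the 6 whose fasted region had no other partner, 5 did. The pair of strongest members nearest to Mbl1, 4058 and 5265 bp upstream of it, had ranks of 74.6 and 89.0, and of 73.3 and 75.6. The next in size, of 9 members in 33029 bp, lay within Col23a1, a transmembrane collagen gene, where 9 of 11 lung regions were private, with median ranks of 41.5 and 63.1.

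Clusters of 7 were found within Dnah8, next to Glp1r, and 124222 to 149933 bp from Irf8. Dnah8 encodes an axonemal dynein and Glp1r the receptor of the incretin GLP-1. In the first, 7 of 8 regions were private, and 3 of 7 ranked higher in fasted lung, with a median difference of −12.4 points (−18.9 over the 5 whose fasted region had no other partner). Irf8 encodes a factor of myeloid cells, and 7 of 13 regions there were private. Among clusters of 6, chosen after their values were seen, was that upstream of Liph, which encodes a phospholipase, where 6 of 7 regions within 6250 bp were private and all 6 ranked higher in fasted lung, with fed ranks of 36.3 to 79.8.

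Motif letters were counted within 100 bp of each summit, on both strands, for 25 motifs. The last 6 letters of the NKX2-1 motif also form an E-box of the kind CANNTG, and the SOX and FOX letters can overlap. The NKX2-1 letters TCAAGTG were in 735 members, 7.07% (interval 6.58 to 7.58), against 3.13% of shared lung regions (3.03 to 3.24). In regions private to the other 7 tissues the share was 2.37% (liver) to 3.94% (muscle), so that lung was the highest of 8, with no overlap of intervals. A single tissue against 7 cannot pass a test, since the smallest exact p is 0.125, and none was made. Over 3000 bp from a start the shares were 6.95% in members and 3.68% in shared regions. Split at the median of the lower of both ranks, the stronger members had the letters at 8.36% and the weaker at 5.79%.

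FOX letters, TGTTTAC, were in 8.68% of members (8.14 to 9.23) and 4.17% of shared regions, with liver next at 6.66% of its private regions and spleen lowest at 1.95%. TEAD letters, read by the effectors of the Hippo pathway, were in 6.08% and 3.86%, with kidney next at 4.87%, and SOX letters in 5.15% and 2.76%, with heart next at 3.98%. Lung was the highest of the 8 private sets for these 4 motifs and for 9 of the 25 in all. Both the NKX2-1 and the FOX letters were in 61 members (0.587%, interval 0.449 to 0.753) and in 0.170% of shared regions, and 15.2% of members had at least 1 of the pair. In windows of 250 bp on each side, 22.2% of the NKX2-1 matches in members and 18.2% in shared regions were within 50 bp of the summit, and for FOX these were 29.9% and 23.4%.

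**Figure D5:**
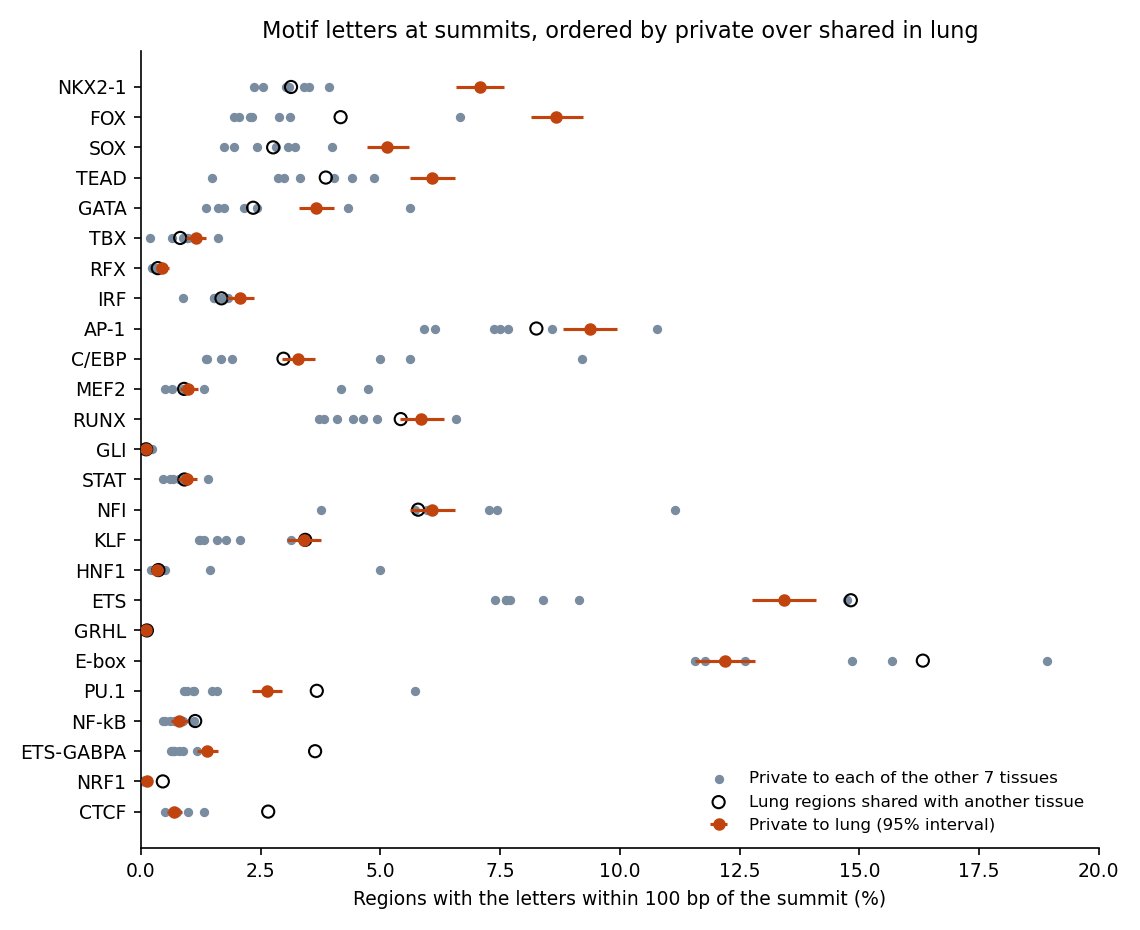
Share of regions with the letters of each of 25 motifs within 100 bp of the summit, for regions private to lung (orange, with 95% Clopper-Pearson interval), private to each of the other 7 tissues (grey) and lung regions shared with another tissue (open circles), with motifs ordered by the private over the shared share in lung. NKX2-1 (7.07% against 3.13%) and FOX (8.68% against 4.17%) head the order, and CTCF (0.683% against 2.66%) is last.

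GATA letters were in 3.65% of members and 2.34% of shared regions, but heart had 5.61% in its private set. Letters of blood and endothelial ETS factors were no more frequent in members than in shared regions. ETS letters were in 13.4% of members and 14.8% of shared lung regions, while among private sets lung was second to spleen (14.7%) and the other 6 had at most 9.16%. The PU.1 letters, of the myeloid factor, were in 2.63% of members and 3.67% of shared regions, with spleen at 5.72%. AP-1 letters were in 9.37% and 8.26%, and over 3000 bp from a start in 9.57% and 9.68%. Insulator letters of CTCF were in 0.683% of members and 2.66% of shared regions, and within 0.511% to 1.32% in the private sets of the other tissues. Among letters of factors typical of other organs, HNF1 was at 0.337% (shared lung 0.364%, kidney 4.98%) and MEF2 at 0.991% (shared lung 0.902%, heart 4.74%). C/EBP letters were in 3.27% of members and 2.98% of shared regions, which put lung in place 4 of the 8 private sets, after white adipose (9.20%), brown adipose (5.62%) and liver (4.98%).

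Members with the NKX2-1 letters had median ranks of 41.5 in fed and 54.3 in fasted lung and a median difference of 9.55 points, against 8.01 points for those without, and 72.4% were higher in fasted lung. For FOX the medians were 43.7 and 55.2, with a difference of 7.58 points against 8.13 without. Among the 43 members at type 2 genes 1 held the NKX2-1 letters and 5 the FOX letters, and among the 125 at transcription factor genes these were 13 and 9. None of the 11 members of the collectin cluster held either set of letters.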

How the data were processed

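The data are 16 ATAC-seq peak lists, 1 for each of 8 tissues in fed and fasted mice. Following the methods of the study and the labels, the authors trimmed the reads, mapped them with Bowtie2 (GRCm38), discarded duplicates, mitochondrial and unmapped reads, shifted the rest for Tn5 and called peaks with MACS2. The deposited fold enrichment is a ratio of the tags at a summit to the local expectation, each plus 1, and the deposited −log10 p-value and −log10 q-value come from the authors' Poisson test within a library. None is scaled between libraries, so these values were used only within a list, as filters and percentile ranks. Several summits within a single interval were counted as 1 region, which kept its smallest p. All peaks ended inside the GRCm38 chromosome lengths. Tag numbers were solved from fold and p (whole within 0.001) for 92.3% to 100.0% of regions per library.

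Positions were compared with the GENCODE vM21 starts and 21951 protein-coding genes, and sequence was read from the RefSeq GRCm38 assembly. The fasted partner of a member is its strongest overlapping region. Members, gene lists and motifs were chosen with earlier results of these data known. Named are the 10 strongest members, the 10 genes with the most, the 5 largest clusters, up to 4 genes of each of 24 lists and 9 fixed lung genes. Foxa2, Ptch1, Smarca2, Liph and the rest of the type 2 list were named beyond this rule, after their values were seen. Only 2 differences, over 8 tissues, were tested (exact sign-flip permutation, two-sided, Benjamini-Hochberg). Alternatives covered q under 1e-06, the anchor state, overlap, excluding peaks, windows, starts, gaps, ranking and leaving out tissues. Steps were tested on simulated data against bedtools 2.31.1. Python 3.11.15, numpy, scipy, pandas and matplotlib were used.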

Additional observations from a re-analysis of the deposited data

Results flagged for a closer look

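In lung the private regions ranked higher in fasted than in fed tissue by a median of 8.07 points, whereas those of 4 other tissues had the opposite sign, with a median of −2.21 points in muscle, −1.93 in heart, −1.44 in spleen and −1.08 in kidney. In fasting, 69.5% of the lung members ranked higher, compared with 43.6% in muscle, 41.4% in heart, 47.9% in spleen and 46.6% in kidney. Over regions whose fasted region was the partner of no other fed region, the medians were 6.76 points in lung, −3.85 in muscle, −3.05 in heart, −2.66 in spleen and −1.94 in kidney. These tissues were picked out because their single fed and single fasted library moved the other way, and the difference between tissues was not tested.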

How the results depend on the processing

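Of 65 alternatives, 43 were classed as the same and 22 moved a value. For the 2 tested differences, the same meant an unchanged sign and a p-value still under the cut, whatever the size. For the number of members it meant within a set factor, and otherwise within the interval of the main value. Only the tested differences and the median rank difference could change sign, and none did. Ranking among regions with q under 0.01 could change nothing, since all lung regions passed that threshold. When each tissue was left out in turn, both tested differences had p = 0.0156 by the exact permutation test, the smallest that 7 tissues allow. This p-value was fixed in advance, since all 8 tissues had the same sign. The promoter difference was between −20.5 and −19.4 points and the GC difference between −6.49 and −5.92 points. The number of members was 5153 with q under 1e-06, 904 with the strongest 50000 regions of each lung library, and 5139 when members had to be over 500 bp from other peaks, while it stayed between 11088 and 14242 when 1 tissue was not used to exclude. The promoter share was 8.78% within 1000 bp, 13.2% with protein-coding starts and 16.5% for members over 500 bp from other peaks. The share in clusters was 6.68% with gaps up to 5000 bp, 26.3% up to 25000 bp and 6.501% with q under 1e-06. The median rank difference was 6.51 points by fold, 5.08 with fasted regions as anchor, 7.37 with q under 1e-06, 7.23 with fasted regions also private, 7.54 without members that shared a fasted region with another member, 6.76 without those that shared it with any fed region, and 7.58 for members over 500 bp from other peaks. The NKX2-1 share was 2.78% within 50 bp, 12.99% within 250 bp (1.27% and 7.30% in shared regions), 8.25% with q under 1e-06 and 7.76% for members over 500 bp from other peaks. The share of genes with a member was 36.6% with any start within 50000 bp and 14.6% with q under 1e-06. The settings on distance to other peaks, on private fasted regions and on fasted regions with several partners were chosen after seeing the data. Larger windows and gaps hold more by construction. Not using a tissue to exclude can only raise the number of members. A stricter q, the strongest 50000 regions or the 500 bp rule can only lower it. The 1000 bp cut and protein-coding starts can only lower the promoter share, and a stricter q the share of genes with a member. For the remaining settings the cause was not tested. No paired analysis was possible because the labels carry no replicate numbers and each tissue and state has a single library. The 2 tests compare private with shared regions within each of the 8 tissues, whose values are not independent.

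Several limits apply. A library per state gives no error for any fed and fasted comparison. A region counts as private only relative to the peaks listed for the other tissues, whose read depth is not given, and 8 of the 16 lists held no region with q above 0.01. Intervals cover counting error only.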
